A study of Mus musculus with 5 samples.

Results

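The genes described are transcriptional targets of p53 in mouse embryonic stem cells depleted of Tet1. They were chosen by name: Trp53, Cdkn1a, Mdm2, Ccng1, Trp53inp1, Sesn1, Bbc3, Bax, Perp and Phlda3, 10 genes in all. Every probe set listed under exactly 1 of these symbols in the platform annotation was taken, which gave 17 probe sets of 8 genes, out of 34945 probe sets of 18193 genes. Trp53, which encodes p53 itself, and Bax were matched to no probe set by this rule and are not analysed here.

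The study asked which genes depend on Tet1, the dioxygenase that oxidises 5-methylcytosine to 5-hydroxymethylcytosine, and used 5 Affymetrix arrays. J1 cells, an established mouse embryonic stem cell line, were kept on mouse embryonic fibroblasts and received a control siRNA or one against Tet1, and RNA was taken 4 days later. E14 cells, another such line, were kept without feeders, infected with lentivirus carrying a scramble hairpin, Tet1 shRNA3387 or Tet1 shRNA2863, and taken after 4 days in puromycin, so that the E14 control had also been infected and selected. Each condition has 1 array, and line, feeders and way of depletion differ together between J1 and E14. A difference between a single pair of arrays therefore has no replicate check, and no p-value is given for it. Values are on a log2 scale as deposited, a difference of 1 is 2-fold, and a level is compared only within its own probe set. Values of J1 are given in the order control siRNA, Tet1 siRNA, and those of E14 in the order scramble, shRNA3387, shRNA2863.

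The transcription factor p53 is held low in unstressed cells by the ubiquitin ligase Mdm2, which is itself a p53 target, so that the pair forms a negative feedback loop. DNA damage and other stresses stabilise p53, and it then activates genes for cell cycle arrest, repair, metabolic adjustment and apoptosis. Embryonic stem cells express p53 abundantly, and in these cells it is also known for repressing pluripotency genes and favouring differentiation after damage.

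Promoter windows were read to show what sequence lies at the start sites of the targets that are discussed most. RefSeq windows of GRCm38.p6, from 250 bases before to 50 bases after an annotated start, were found for 8 of the 10 genes, in 12 windows. Perp and Trp53inp1 had no entry. The p53 response element is built from repeats of 10 bases with a fixed C and G at the centre, and the sequence was searched for the consensus repeat, which reads alike on both strands. An exact repeat was present in 6 of the 12 windows, against 8.36% of all 32851 windows, some of which belong to the same gene or overlap. A pair of repeats, each with at most 1 mismatch outside the fixed bases and at most 13 bases apart, was present in 2 of the 12 and in 2.71% of all windows. These 2 windows are printed here with the repeats of the pairs in capitals, because they show matches to the element close to the starts of Cdkn1a and Ccng1. A match describes letters and is not evidence of binding.
Cdkn1a, chr17:29090729-29091028, plus strand, at the upstream of its 2 listed starts: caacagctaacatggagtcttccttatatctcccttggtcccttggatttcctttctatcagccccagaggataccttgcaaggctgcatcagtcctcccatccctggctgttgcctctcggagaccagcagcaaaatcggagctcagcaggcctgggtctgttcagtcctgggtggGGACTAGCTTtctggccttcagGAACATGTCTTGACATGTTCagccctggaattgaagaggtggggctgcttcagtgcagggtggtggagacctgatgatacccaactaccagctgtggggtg
Ccng1, chr11:40755237-40755536, minus strand: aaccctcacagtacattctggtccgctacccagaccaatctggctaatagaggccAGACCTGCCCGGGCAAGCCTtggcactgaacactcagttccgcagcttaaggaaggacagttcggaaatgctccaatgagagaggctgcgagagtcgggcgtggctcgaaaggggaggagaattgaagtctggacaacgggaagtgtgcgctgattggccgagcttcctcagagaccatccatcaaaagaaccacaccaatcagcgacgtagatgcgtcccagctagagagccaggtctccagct
In the Cdkn1a window 3 repeats formed 2 overlapping pairs. GAACATGTCT and TGACATGTTC adjoin, with 1 mismatch between them, and GGACTAGCTT with GAACATGTCT matches without mismatch at a distance of 12 bases. In the Ccng1 window the repeats AGACCTGCCC and GGGCAAGCCT adjoin, with 1 mismatch. The other Cdkn1a window and all 3 Bbc3 windows held no exact repeat.

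The labels were checked first. The brightest Tet1 probe set read 10.85 and 8.31 in J1 cells with control and Tet1 siRNA, and 10.95, 9.24 and 10.06 in E14 cells with scramble, shRNA3387 and shRNA2863. Tet1 was thus lower on all 3 depleted arrays, and lower with shRNA3387 than with shRNA2863. All 8 listed stem cell markers lay above the filter level on the 5 arrays, the filter level being the 40th percentile of an array's probe sets, between 3.03 and 3.12. Dppa5a and Sox2 read at least 12.95 and 11.16. Of the fibroblast markers, 14 of 20 lay above the filter level on all arrays, and their summed linear level was 1587 and 1629 in J1 cells on feeders and 1214 to 1969 in feeder-free E14 cells, a sum carried mostly by Tagln and Acta2. Of the 15 that were kept, 8 were higher in E14 and 7 lower by the limma estimate, with a median of 0.02 beside 0.03 over all genes. Only 1 passed the test between the lines, where 14.2% of all genes did. This was the fibroblast collagen Col1a2, named here after its values were seen. It read 6.24 and 5.95 in J1 and 3.62, 3.59 and 3.61 in E14, lower in E14 by -2.47 ± 0.10 (SE, limma adjusted p = 0.0129). Of the 12 trophectoderm markers, 8 lay above it on all arrays, as did 7 of 10 primitive endoderm markers. Of the p53 target probe sets, 15 lay above the filter level on every array, 1 of Sesn1 on 4 arrays, and 1 of Mdm2 (2.65 to 2.75) on none, so 16 probe sets and all 8 genes entered the fits.

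**Figure D1:**
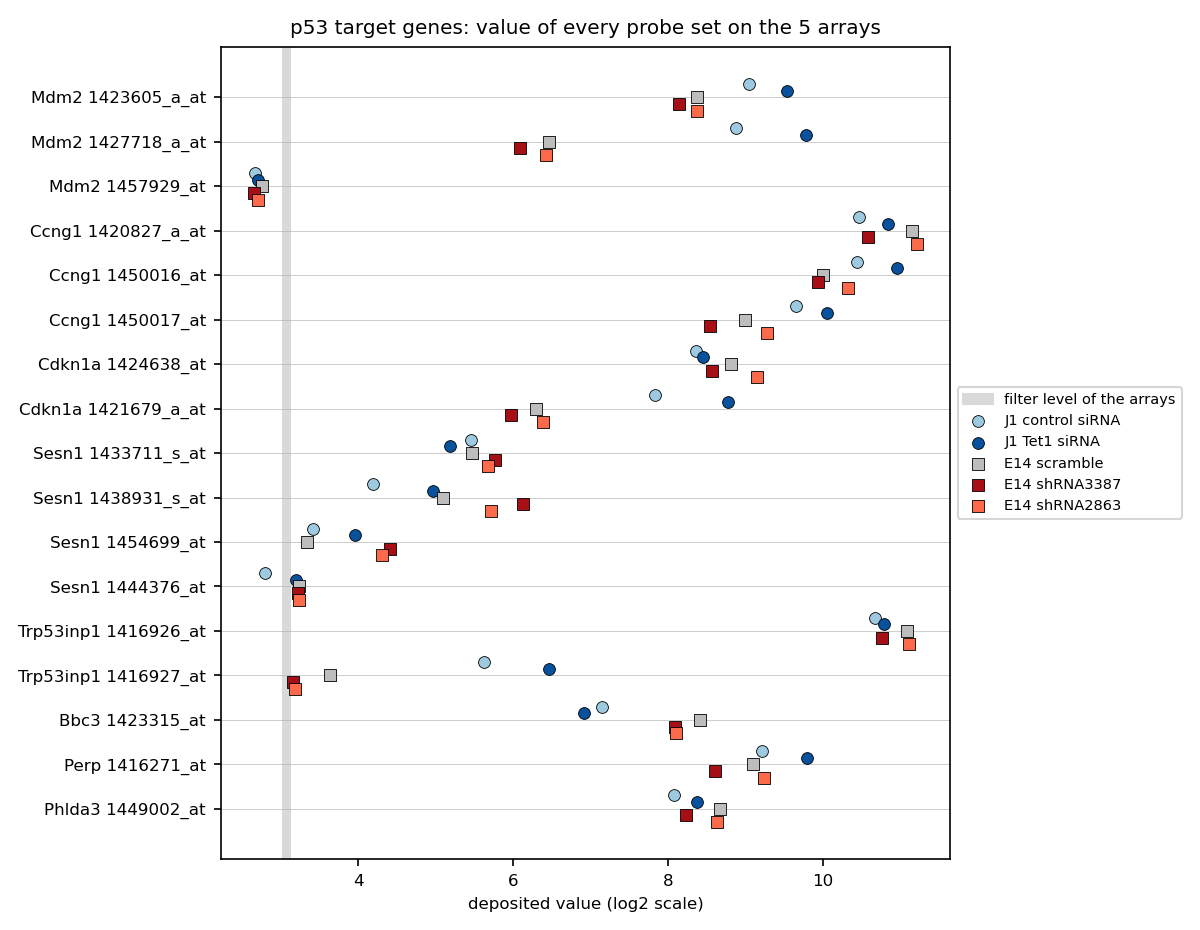
Deposited values (x axis, log2 scale) of the 17 probe sets of the p53 target genes, with 1 point for each of the 5 arrays: circles for J1 and squares for E14. Both J1 arrays lie far above the 3 E14 arrays in 1 probe set each of Mdm2, Cdkn1a and Trp53inp1, and below them in Bbc3.

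Mdm2 and Ccng1 are feedback targets. The brightest Mdm2 probe set, 1423605_a_at, read 9.05 and 9.54 in J1, and 8.38, 8.14 and 8.38 in E14. A different Mdm2 probe set, 1427718_a_at, read 8.88 and 9.79 in J1, and 6.47, 6.09 and 6.43 in E14. Both J1 values lay above all 3 E14 values in each of these probe sets, and the Tet1 siRNA array was the highest of the 5. Ccng1, which encodes cyclin G1, a recruiter of phosphatase to Mdm2, was measured by 3 bright probe sets. The brightest, 1420827_a_at, read 10.47 and 10.85 in J1, and 11.15, 10.59 and 11.22 in E14. Probe set 1450016_at read 10.44 and 10.96 in J1, and 10, 9.94 and 10.33 in E14. Probe set 1450017_at read 9.65 and 10.06 in J1, and 9.0, 8.55 and 9.28 in E14. All 3 were higher on the Tet1 siRNA array than on its control, and lower with shRNA3387 than with scramble, but they disagreed on which line was higher.

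Cdkn1a encodes p21, the cyclin-dependent kinase inhibitor through which p53 arrests the cell cycle. Its brightest probe set, 1424638_at, read 8.36 and 8.45 in J1, and 8.82, 8.57 and 9.15 in E14. Probe set 1421679_a_at read 7.83 and 8.78 in J1, and 6.29, 5.97 and 6.39 in E14. The first was lowest in J1 and the second lowest in E14, so the order of the lines turned with the probe set. With Tet1 siRNA the second was 1.93-fold higher than its control and the first 1.06-fold.

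Sesn1 and Trp53inp1 act in the response to oxidative and metabolic stress. Sesn1 encodes sestrin 1, which restrains mTORC1, and had 4 probe sets. The brightest, 1433711_s_at, read 5.45 and 5.18 in J1, and 5.47, 5.76 and 5.68 in E14. Probe set 1438931_s_at read 4.19 and 4.96 in J1, and 5.09, 6.13 and 5.72 in E14. Probe set 1454699_at read 3.41 and 3.96 in J1, and 3.34, 4.41 and 4.31 in E14. In both dimmer probe sets each depleted array was above the control of its line. The dimmest, 1444376_at, read 2.79 to 3.24, at the filter level. Trp53inp1 encodes a stress protein that promotes p53 phosphorylation and autophagy. Its brighter probe set, 1416926_at, read 10.68 and 10.79 in J1, and 11.09, 10.76 and 11.12 in E14. The dimmer, 1416927_at, read 5.63 and 6.47 in J1, but 3.63, 3.15 and 3.18 in E14, close to the filter level, so that it marked J1 and the brighter one did not.

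Bbc3, Perp and Phlda3 act in apoptosis and each had 1 probe set. Bbc3 encodes PUMA, which binds and blocks anti-apoptotic Bcl2 proteins, and read 7.15 and 6.92 in J1, and 8.42, 8.09 and 8.10 in E14. It was the only one of the 8 genes whose gene-level value was lower in all 3 depletions. Perp encodes a tetraspan membrane protein of desmosomes that takes part in p53-dependent death, and read 9.21 and 9.80 in J1, and 9.10, 8.61 and 9.24 in E14. Phlda3 encodes a repressor of Akt that competes for membrane lipids, and read 8.08 and 8.37 in J1, and 8.67, 8.24 and 8.63 in E14. Perp and Phlda3 were highest among the J1 arrays with Tet1 siRNA and lowest among the E14 arrays with shRNA3387.

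In J1 cells with Tet1 siRNA, most p53 target genes were slightly higher than with control siRNA. Taking the brightest probe set for each gene, 6 of 8 were higher, among 13619 genes of which 45.5% were higher. The median difference was 0.20, beside -0.01 over all 13619 genes. Perp led with 0.59, 1.51-fold, followed by Mdm2 with 0.49, Ccng1 with 0.38, Phlda3 with 0.29, Trp53inp1 with 0.11 and Cdkn1a with 0.09. Bbc3 and Sesn1 were lower, with -0.23 and -0.27. Only Perp was at least 1.5-fold different, where 9% of all genes were, and 0 reached 2-fold, where 1.57% did. Over probe sets the shift was larger: 14 of 16 were higher, against 50.4% of all 24018, with a median of 0.45 beside 0.01. At least 1.5-fold higher were 5 of 16, against 6.5% of all probe sets. These were Cdkn1a 1421679_a_at with 0.95, Mdm2 1427718_a_at with 0.91, Trp53inp1 1416927_at with 0.84, Sesn1 1438931_s_at with 0.77, and Perp. Several of these probe sets measure the same gene, and all come from a single pair of arrays.

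Markers of other cell types moved on the same pair of arrays. Of the trophectoderm markers kept, 8 of 9 were higher with Tet1 siRNA, and their summed level was 7815 and 11600, led by the keratins Krt18 (11.75 and 12.46) and Krt8 (11.84 and 12.25). Of the primitive endoderm markers 6 of 7 were higher, with sums of 2489 and 3360, led by Sparc (10.95 and 11.38) and Col4a1 (8.54 and 9.13). Gata4, Gata6 and Sox17, also among those higher, read only 3.18 to 3.84, near the filter level. Lama1 was the one that was lower (5.88 and 5.34). By the brightest probe set all 8 stem cell markers were lower, where 50.4% of all genes were, with sums of 25490 and 20170. Of their other probe sets, Esrrb 1441921_x_at (6.25 and 5.85) and Klf4 1417395_at (7.13 and 6.41) were lower too. Esrrb 1422986_at was higher (5.11 and 5.99). The part of all these markers in the p53 target values was not tested. In such bulk samples, more cells of a type and more RNA per cell cannot be told apart.

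In E14 cells with shRNA3387, most p53 target genes were slightly lower than with the scramble hairpin. By the brightest probe set 7 of 8 genes were lower, where 56.9% of all genes were, with a median of -0.33 beside -0.02 over all genes. Ccng1 differed by -0.56, 1.47-fold lower, Perp by -0.49, Phlda3 by -0.43, Bbc3 and Trp53inp1 by -0.33, Cdkn1a by -0.25 and Mdm2 by -0.24. Sesn1 was the exception with 0.29. None of the 8 reached 1.5-fold, where 8.75% of all genes did. Over probe sets 13 of 16 were lower, where 57.4% were. The 3 others were of Sesn1, and 2 of these were at least 2-fold higher, 1438931_s_at with 1.04 and 1454699_at with 1.07, where 2.24% of all probe sets were 2-fold different in either direction. The trophectoderm markers were mixed, 4 of 9 higher and 5 lower, with a sum, carried by Krt8 and Krt18, of 1816 with shRNA3387 and 2364 with scramble. Of the fibroblast markers 12 of 15 were lower, 3 of them at least 1.5-fold, with sums of 1214 and 1836, led by Tagln (9.50 and 10.12) and Acta2 (7.16 and 8.62). Their part in these values was not tested.

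With shRNA2863, which left more Tet1, the p53 target genes had a median difference near 0. By gene 5 of 8 were higher, where 41.9% of all genes were, 2 were lower and Mdm2 was equal at 0.00. The median was 0.05, beside -0.01 over all genes. Cdkn1a was 0.33 higher, Sesn1 0.21, Perp 0.14, Ccng1 0.07 and Trp53inp1 0.03, while Bbc3 differed by -0.32 and Phlda3 by -0.04. None reached 1.5-fold, where 6.89% of all genes did. Among the other probe sets, Sesn1 1454699_at was 0.97 higher and Sesn1 1438931_s_at 0.63. Of the trophectoderm markers 8 of 9 were higher on this pair, with sums of 3707 with shRNA2863 and 2364 with scramble, and their part in these values was not tested. Both hairpin arrays are compared with the same scramble array, so that these values share its error.

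**Figure D2:**
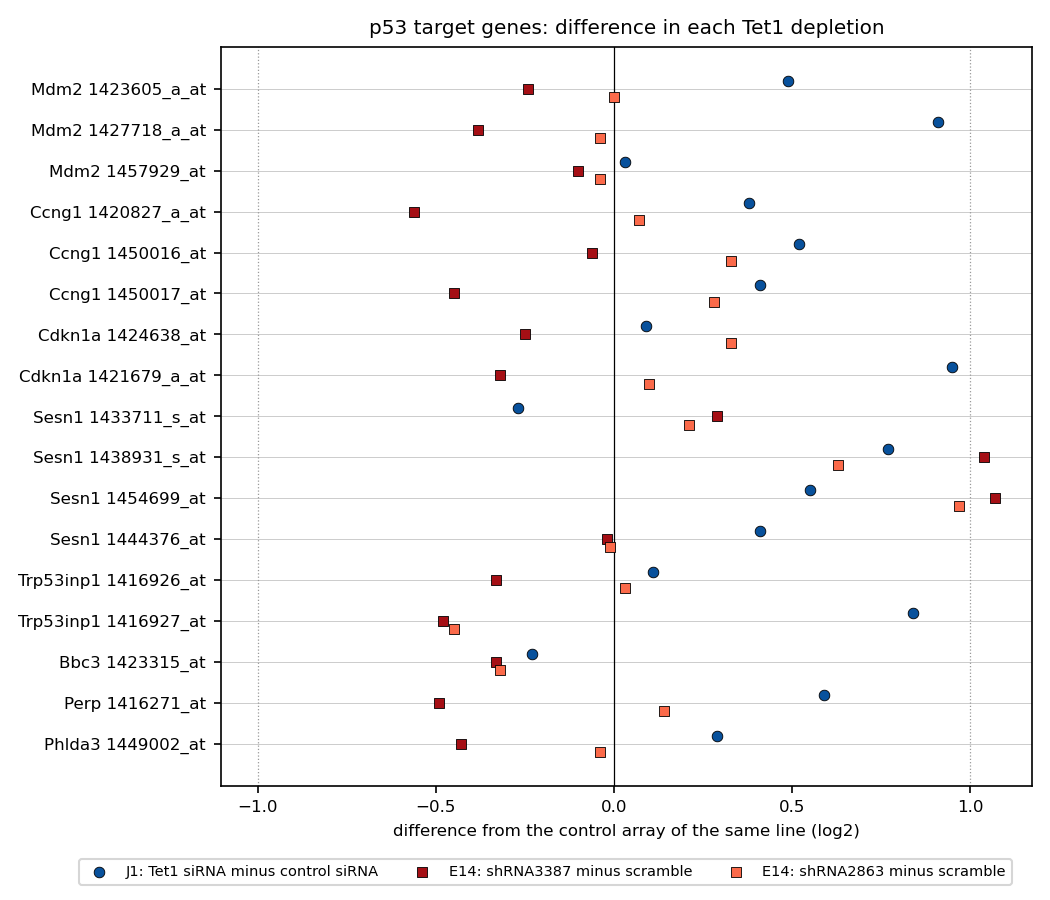
Difference of each Tet1-depleted array from the control array of its own line (x axis, log2) for the 17 probe sets, with dotted lines at 2-fold. The J1 points lie to the right of 0 for all but Bbc3 and the brightest Sesn1 probe set, the shRNA3387 points lie to the left except for 3 Sesn1 probe sets, and the shRNA2863 points lie to the right of the shRNA3387 points except for those 3.

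Set directly against each other, the hairpin arrays differed in most of these genes, and this comparison does not use the scramble array. With shRNA3387, which left less Tet1, 7 of 8 genes were lower than with shRNA2863, where 57.8% of all genes were, and the median difference was -0.38 beside -0.01. Perp and Ccng1 differed by -0.63, 1.55-fold lower, and were the 2 genes at least 1.5-fold different, where 5.65% of all genes were. Cdkn1a differed by -0.58, Phlda3 by -0.39, Trp53inp1 by -0.36 and Mdm2 by -0.24. Bbc3 was nearly equal at -0.01, and Sesn1 differed by 0.08. Over probe sets 13 of 16 were lower, where 58.7% were, down to -0.73 for Ccng1 1450017_at. Of the trophectoderm markers 3 of 9 were higher with shRNA3387 and 6 lower, with sums of 1816 and 3707, and 14 of 15 fibroblast markers were lower, with sums of 1214 and 1969. Only 3 of these fibroblast markers were at least 1.5-fold lower, several others differed little, and the sums were carried mostly by Tagln and Acta2. Krt8 read 9.21 and 10.59 on these arrays. Their part in the difference between the hairpins was not tested.

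The directions in J1 and with shRNA3387 were opposite for 7 of the 8 genes, where they were for 49.8% of all genes. These arrays share no control, and the combination was counted after the values were seen. Mdm2, Ccng1, Cdkn1a, Trp53inp1, Perp and Phlda3, 6 genes, were higher in J1 and lower with shRNA3387, as were 27.1% of all genes, and Sesn1 was the reverse. Over probe sets, 5 of 16 had a J1 difference opposite in sign to both hairpin differences, where 36.7% of all did. For the difference of the Tet1 effect between E14 and J1, limma estimated -0.77 ± 0.57 (SE) for Perp, -0.63 ± 0.57 for Ccng1, -0.61 ± 0.24 for Mdm2, -0.53 ± 0.37 for Phlda3, -0.26 ± 0.33 for Trp53inp1 and -0.05 ± 0.53 for Cdkn1a. The spread behind these errors is that of the hairpin pair. None of the 8 genes passed, with a lowest adjusted p of 0.368 (Sesn1), and 0 of 13619 genes did (0%, lowest adjusted p = 0.332). At an unadjusted p under 0.05 there were 0 of 8 and 13.9% of all genes. With every probe set fitted, 3 of 16 were under it, against 17.8% of all. The smallest p was that of Trp53inp1 1416927_at, with -1.31 ± 0.08 (SE), unadjusted p = 0.00322 and adjusted p = 0.16. Its small error comes from hairpin values of 3.15 and 3.18, close to the filter level.

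No p53 target gene passed the test over all 3 depletions. The fit compared 3 depleted with 2 control arrays, with line as a term and 2 residual degrees of freedom, and called 0 of 13619 genes (0%, lowest adjusted p = 0.7). Its spread comes from how the 3 depletions differ, not from replicates of 1 condition. Depletions that point in opposite directions widen it and bring the estimate near 0, so a gene that did not pass is not thereby shown unchanged. Estimates for the 8 genes ran from -0.28 for Bbc3 to 0.15 for Perp, with a median of 0.03 beside -0.01 over all genes. Bbc3 differed by -0.28 ± 0.09 (SE), lower in 3 of 3 depletions, with unadjusted p = 0.0403 and adjusted p = 0.718. It was 1 of 8 genes at an unadjusted p under 0.05, where 6.87% of all genes were. With every probe set fitted, 3 of 16 were under it, where 6.32% were. Besides Bbc3 these were Sesn1 1454699_at, with 0.82 ± 0.14 (SE), and Sesn1 1438931_s_at, with 0.81 ± 0.16. Both were higher in 3 of 3 depletions, and both had an adjusted p of 0.737 in limma. The brightest Sesn1 probe set differed by 0.03 ± 0.16 and did not share this pattern.

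In E14 alone, with both hairpin arrays against scramble, 0 of the 8 genes passed, and 0 of all genes did (0%, lowest adjusted p = 0.342). At an unadjusted p under 0.05 there were 0 of 8 genes, against 11% of all. With every probe set fitted there were 2 of 16, against 11.5%: Sesn1 1454699_at with 1.02 ± 0.07 (SE) and adjusted p = 0.324, and Trp53inp1 1416927_at with -0.47 ± 0.05 and adjusted p = 0.34. The single residual degree of freedom comes from the hairpin pair, and the lone arrays are assumed to vary as that pair does.

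**Figure D3:**
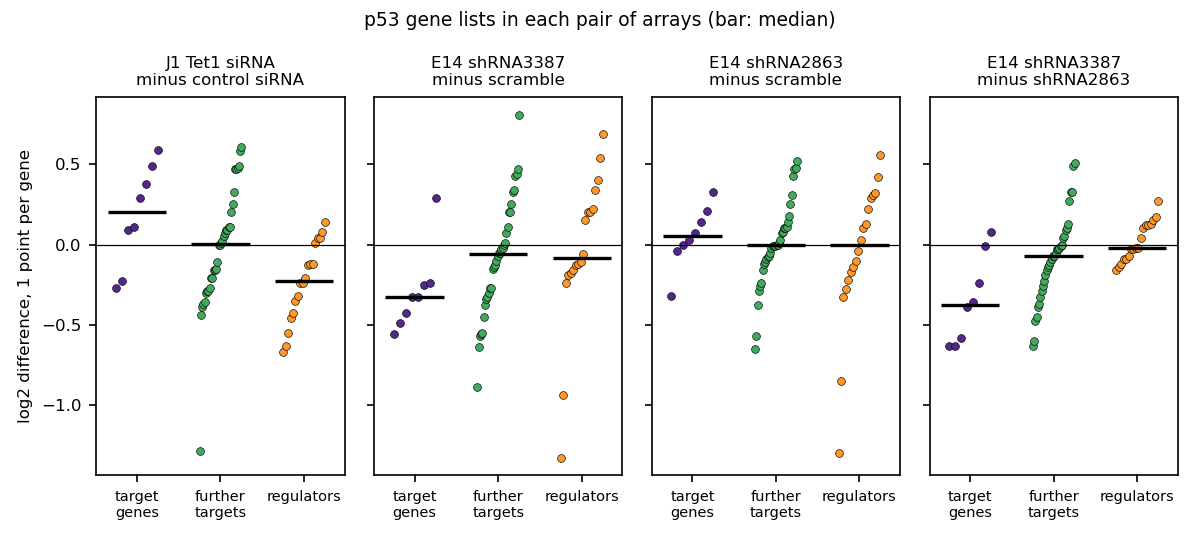
Log2 differences (y axis) in 4 pairs of arrays for the 8 p53 target genes, 34 further p53 targets and 18 p53 regulators, 1 point per gene by its brightest probe set, with a bar at the median. The target genes have medians of 0.20, -0.33, 0.05 and -0.38, while those of the further targets stay between -0.07 and 0.01.

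A wider list of p53 targets had medians near 0. Of 39 further targets named, 34 were kept. Their median difference was 0.01 in J1 with Tet1 siRNA, -0.06 with shRNA3387 and -0.01 with shRNA2863. In J1, 17 were higher and 15 lower, where 45.5% and 50.4% of all genes were, and Sesn2, a sestrin that is also induced by amino acid shortage, was the only one 2-fold different (6.25 and 4.96, a difference of -1.29). This Sesn2 probe set differed by -0.10 and -0.07 with shRNA3387 and shRNA2863. A different one, 1425139_at, differed by 0.71 in J1, and by -0.75 and -0.28 with these hairpins. The direction of Sesn2 in J1 thus depended on the probe set. With shRNA3387, 12 were higher and 21 lower, where 56.9% of all genes were lower. Ier3, an early response gene that modulates apoptosis, differed by -0.30, -0.56 and -0.65 in J1, shRNA3387 and shRNA2863. The microsomal epoxide hydrolase Ephx1 differed by -0.15, -0.89 and -0.29, and the xylulose reductase Dcxr by 0.01, -0.64 and -0.57. Gadd45a, a DNA damage inducible growth arrest gene, differed by -0.29, -0.05 and -0.05. Pmaip1, which encodes the BH3-only protein NOXA, differed by -0.44, 0.47 and 0.43. In the fit over all 3 depletions 0 of 34 passed, and 3 had an unadjusted p under 0.05, where 6.87% of all genes did.

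The p53 regulators were mostly lower in J1 cells with Tet1 siRNA. There 13 of 18 were lower, where 50.4% of all genes were, with a median of -0.23. Cdkn2a, whose Arf product blocks Mdm2, had the largest mean difference. It read 4.01 and 3.34 in J1, and 3.88, 2.55 and 2.58 in E14, with both hairpins under the filter level, so these values are hard to tell from background. Its differences were -0.67, -1.33 and -1.30. Trp63, the p53 family member of epithelia, read 3.56 and 3.57 in J1, and 4.43, 3.49 and 3.58 in E14. All but the scramble value were close to the filter level, so its difference in E14 rests on that single array. Chek2, a kinase that phosphorylates p53 after DNA breaks, differed by -0.63, -0.19 and -0.17 in J1, shRNA3387 and shRNA2863. Mdm4, the partner of Mdm2 that masks the p53 activation domain, differed by -0.43, -0.18 and -0.33 in its brightest probe set. Dimmer Mdm4 probe sets did not share this direction throughout: 1419558_at differed by 0.26, -0.35 and -0.15, and 1453982_at by 0.04, -0.13 and 0.07. Hipk2, a kinase that promotes the apoptotic function of p53, differed by -0.24, 0.69 and 0.56 in its brightest probe set. No other Hipk2 probe set was higher with both hairpins. The nearly as bright 1425983_x_at differed by -0.28, -0.03 and -0.02. In the fit over all 3 depletions 0 of 18 passed, and 2 had an unadjusted p under 0.05, where 6.87% of all genes did.

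The largest differences among the p53 target genes lay between the lines. Of the control arrays, 6 of 8 genes were higher in E14 scramble than in J1 control cells, where 56.2% of all genes were. Bbc3 was 2.41-fold higher and was the 1 gene at least 2-fold different, where 8.36% of all genes were. At least 1.5-fold different were 4 of 8, where 23.1% were: Bbc3, Ccng1 with 0.68 and Phlda3 with 0.59 higher in E14, and Mdm2 with -0.67 lower. In the limma fit over all 5 arrays, E14 against J1 at equal depletion state, Bbc3 was higher in E14 by 1.22 ± 0.09 (SE, 3 E14 and 2 J1 arrays, adjusted p = 0.0174). It was 1 of 8 genes called, where 14.2% of all genes were. Mdm2 differed by -1.02 ± 0.19 with an adjusted p of 0.0506. When any 1 of the 5 arrays was left out, the Bbc3 estimate ran from 1.18 to 1.27, but no call held. Fewer residual degrees of freedom then remained than the 2 of the full fit.

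The result for the lines depended on the probe set. With every probe set fitted, 6 of 16 passed, where 17.6% of all probe sets did. The 4 that were lower in E14 were Mdm2 1427718_a_at by -3.05 ± 0.33 (SE; adjusted p = 0.0189), Trp53inp1 1416927_at by -2.75 ± 0.35 (adjusted p = 0.024), Cdkn1a 1421679_a_at by -2.15 ± 0.32 (adjusted p = 0.0322) and Mdm2 1423605_a_at by -1.02 ± 0.20 (adjusted p = 0.0491). The last of these calls was lost with quantile normalization (adjusted p = 0.0544), without a filter (0.0595) and without a trend (0.0501), and that of Sesn1 1438931_s_at without a filter (0.0539). Higher in E14 were Bbc3 (adjusted p = 0.0126) and Sesn1 1438931_s_at by 0.94 ± 0.16 (adjusted p = 0.0412). The brighter probe sets of Trp53inp1 and Cdkn1a pointed the opposite way, with 0.26 ± 0.15 and 0.43 ± 0.22, and did not pass. For Ccng1, 1420827_a_at differed by 0.32 ± 0.28 while 1450016_at and 1450017_at differed by -0.66 ± 0.18 and -0.93 ± 0.29, and none passed. Such a split was not particular to the p53 target genes. The p53 regulator Usp7 differed by 0.25 ± 0.08 in 1419920_s_at and by -4.13 ± 0.49 in 1437118_at. Tet1 differed by 0.81 ± 0.43 in 1455425_at and by -0.95 ± 0.29 in 1419896_at. On the control arrays alone, 3 of 16 probe sets were at least 2-fold lower in E14, where 8.34% of all were: Mdm2 1427718_a_at with -2.41, Trp53inp1 1416927_at with -2.0 and Cdkn1a 1421679_a_at with -1.54. These 3 were also the probe sets with the widest range over the arrays, 2.81 to 3.70. The 6 calls were not all kept when any 1 array was left out. Each such fit had fewer residual degrees of freedom than the 2 of the full fit. A lost call can therefore not be laid to the array left out. The summed trophectoderm markers were 7815 and 11600 in J1 and 1816 to 3707 in E14, and the primitive endoderm markers 2489 and 3360 against 926 to 978. These sums were carried mostly by Krt8 and Krt18, and by Sparc and Col4a1. By the limma estimate, 8 of 9 kept trophectoderm and 5 of 7 primitive endoderm markers were lower in E14. Eomes, by 1.04, and Lama1, by 0.90, were among those higher in E14. Of the 8 stem cell markers 5 were higher in E14 and 3 lower, and 4 of the higher ones passed, where 14.2% of all genes passed. Median estimates were -1.83 for trophectoderm, -0.05 for primitive endoderm and 0.48 for stem cell markers, beside 0.03 over all genes. The part of these markers in the difference, and that of the fibroblast markers, was not tested, and line, feeders and way of depletion cannot be told apart.

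**Figure D4:**
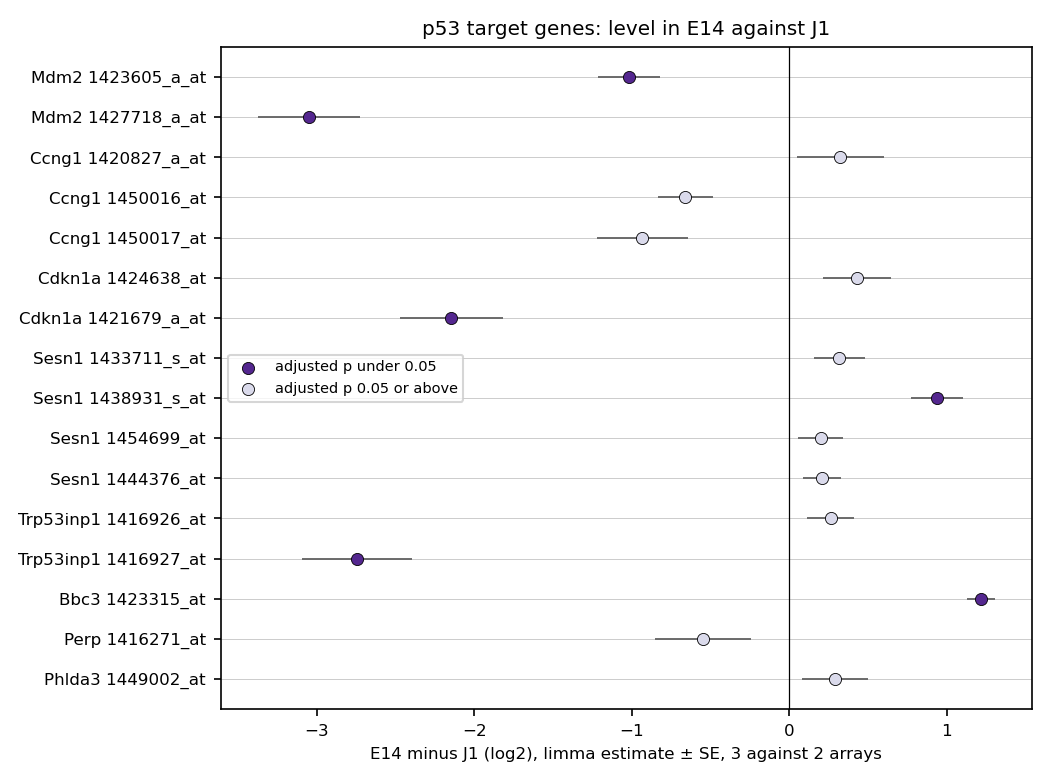
Difference in level between E14 and J1 (x axis, log2) for the 16 probe sets that entered the fit, as the limma estimate with its SE, with dark points for an adjusted p under 0.05. Probe sets of 1 gene lie on opposite sides of 0 for Ccng1, Cdkn1a and Trp53inp1.

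The kept genes whose values followed those of the brightest Cdkn1a probe set most closely over the 5 arrays were Tmco5, Sash3 and AI593442. Likeness was measured as the Euclidean distance between values centred on each gene's mean, and was 0.08, 0.11 and 0.12 among 8773 candidate genes. Candidates had to reach a minimum range over the arrays, which was set below the range of Cdkn1a itself. Tmco5 read 3.05 and 3.06 in J1, and 3.47, 3.16 and 3.81 in E14, near the filter level. With 5 arrays and this many candidates, such nearness is a description only.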

How the data were processed

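RNA of 5 samples was measured on 1 array each. The log2 values are probe set summaries as deposited by the authors. Their scale was read from the range of 1.38 to 14.12. How the authors summarised, background-corrected and normalized them is not given in the sources used here, and nothing further was done to the values. Groups came from the sample titles. Of 45101 probe sets, 64 were array controls, 34945 had 1 symbol, 932 several and 9160 none. RefSeq (GRCm38.p6) held the Entrez identifiers of 34741 of them, and 0 symbols changed. The brightest probe set stood for its gene, and a gene was kept where at least 1 array had it above the 40th percentile of probe sets other than controls (13619 of 18193 genes). Of the separate probe sets, 24018 were kept.

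All tests were two-sided moderated fits in limma 3.58.1 (R 4.3.3) with an intensity trend, adjusted by Benjamini-Hochberg over all kept genes, or all kept probe sets, at 0.05. The p-values reflect only how these arrays vary, which may be technical, and precision is limited by their number. The fits were tested on simulated data. Promoter sequences were searched with Python 3.11.15. The members, lists and tests were chosen with earlier results of these data known. Named were all members, the 4 genes of each p53 list with the largest mean difference, any that was 2-fold different in 1 depletion, 4 fixed genes (Gadd45a, Mdm4, Sesn2 and Pmaip1), the 2 brightest markers of each cell type and the 3 genes nearest to Cdkn1a. The alternatives were quantile normalization, median centring, no filter, the 60th percentile, the median over probe sets, every probe set fitted, no trend, no line term, a 1.5-fold threshold, and leaving out each array. The fit of every probe set was repeated under the other settings as an addition chosen after seeing the data.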

Additional observations from a re-analysis of the deposited data

Results flagged for a closer look

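In 5 of the 16 fitted probe sets the J1 difference had the opposite sign to both hairpin differences, where 36.7% of all fitted probe sets did. The pattern was thus no more frequent among the p53 target probe sets than among all. Each difference of effects was tested in limma with every probe set fitted. None passed. The values, as E14 minus J1 on the log2 scale, were -1.12 ± 0.33 (SE) for Mdm2 1427718_a_at (adjusted p = 0.319), -1.31 ± 0.08 for Trp53inp1 1416927_at (adjusted p = 0.16), -0.53 ± 0.37 for Phlda3 (adjusted p = 0.585), 0.52 ± 0.13 for Sesn1 1433711_s_at (adjusted p = 0.285) and -0.43 ± 0.04 for Sesn1 1444376_at (adjusted p = 0.179). The last had hairpin differences of -0.02 and -0.01 and lay at the filter level.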

How the results depend on the processing

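No paired analysis was possible because each group has 1 array. The E14 against J1 comparison called 1 of the 8 genes, where 14.2% of all genes were called. It called 2 with median centring or the 60th percentile (Bbc3 and Mdm2), and 4 with the median over probe sets. With every probe set fitted it called 5, a gene counting if any of its probe sets passed, and 4238 of all 24018 probe sets (17.6%). The counts under median centring, the 60th percentile and the median over probe sets have no such share beside them. They show no more than that the calls changed with the setting. With any 1 array left out no gene call held, and the added fit of every probe set did not keep all 6 calls among the 16 member probe sets. Such fits had fewer residual degrees of freedom than the 2 of the full fit, so these losses cannot be laid to a particular array. With 1 array left out, the level of Sesn1 1454699_at ran from -0.07 to 0.40. With the median over probe sets the level was reversed for Cdkn1a (-0.86), Ccng1 (-0.60) and Trp53inp1 (-1.24), 2 genes were 2-fold different between the control arrays, and 3 were higher in E14. By the same rule the hairpin effect became -0.035 for Cdkn1a and 0.14 for Ccng1, and the effect over all depletions 0.028 for Trp53inp1. That effect lay near 0 and also changed sign with quantile normalization for Sesn1 (-0.024), and without a line term for Mdm2 (-0.028), Trp53inp1 (0.005) and Phlda3 (0.038). Quantile normalization gave a hairpin effect of -0.009 for Cdkn1a, and median centring a difference of effects of 0.035 for it and 2 genes higher between the hairpins. At 1.5-fold, 1 gene differed in J1, 2 between the hairpins and 4 between the control arrays. With 1 array left out, the effect over all depletions ran from -0.08 to 0.21 for Cdkn1a, -0.12 to 0.49 for Mdm2, -0.25 to 0.38 for Ccng1, -0.15 to 0.11 for Trp53inp1, -0.27 to 0.25 for Sesn1, -0.18 to 0.59 for Perp and -0.24 to 0.29 for Phlda3, and none of these passed. The cause was not tested for any of these changes. Of the tested values of single genes or probe sets under the alternatives, 422 kept their direction and their side of the threshold, 27 changed direction, 33 lost a call and 5 gained one. Probe sets near the filter level, Trp53inp1 1416927_at in E14 and Sesn1 1444376_at on all arrays, are limited by background.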
